A study of Mus musculus with 9 samples.

Results

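The data describe 50 genes of the DNA replication machinery in 9 clones of p53-/- mouse embryonic cells, of which 3 were labelled diploid, 3 triploid and 3 tetraploid. The genes were taken from a list that covers origin licensing, origin firing, the replicative polymerases, the sliding clamp and its loader, nucleotide supply and fork protection. Each was found through the RefSeq accession of its array probe, and the brightest probe on average stood for a gene with several. All 50 were measured, among 12437 named genes and 21800 features in all (named genes plus probes without a name), 49 of them above background on all 9 arrays and Cdc7 on 8.

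All 9 clones carry the p53-/- genotype per the labels, so no p53-proficient cells stand beside them. The cells were grown in medium with 10% fetal bovine serum and were not treated, and 1 one-colour (Cy3) Agilent array was deposited for each clone. The free-text descriptions of the 8 clones other than diploid clone 1 give other numbers after the letter p, while the genotype field gives p53 throughout. Trp53, the p53 gene, was well above background on 1 of the 9 arrays. The labels name clones but not separate animals, and 7 clones bear the sample name of diploid clone 1 plus a suffix, so p-values measure only the spread between these clones.

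Col1a1, Col1a2 and Vim, markers of fibroblasts, were well above background in every clone, and all 10 listed fibroblast markers were in at least 1 whole group, with a summed linear signal relative to the 75th percentile of 954.2 to 1359 in diploid, 600.4 to 1361 in triploid and 1223 to 1426 in tetraploid clones. In triploid against diploid 0 of the 10 were called by limma, and 3 were higher and 5 lower at an unadjusted p under 0.05. Thy1 differed by -8.71 ± 1.95 (limma adjusted p 0.0603), Postn by -4.37 ± 1.83, Pdgfrb by -1.78 ± 0.58, Vim by -0.75 ± 0.26 and Dcn by 4.13 ± 1.46, and Lum was above background on 5 arrays. The part of these differences in the results on replication genes was not tested. Of 7 pluripotency markers, Nanog, Dppa5a and Utf1 were measured, and Pou5f1, Zfp42, Sox2 and Esrrb were not above background. The summed linear signal of the 3 was 1.128 to 1.215 in diploid, 0.995 to 1.179 in triploid and 1.174 to 1.307 in tetraploid clones. Of 9 epithelial markers, 4 were measured, and Epcam, Cdh1, Krt8, Cldn3 and Cldn4 were not. The summed linear signal of the 4, relative to the 75th percentile, was 13.5 to 34.0 in diploid, 0.820 to 2.00 in triploid and 31.1 to 49.4 in tetraploid clones. The sum does not give the direction of most of the 4. In tetraploid against diploid clones 1 was higher, by 0.71, and 3 were lower, with a median of -0.92 over the 4. Those 3 had a limma unadjusted p under 0.05 (8.36% of features, lower) and separate groups (11.1%), and 0 were called. Krt19 and Krt7 fell in triploid against diploid clones by 5.08 and 2.19 (limma adjusted p 0.00459 and 0.0444), and the part of this difference in the results on replication genes was not tested. Of 8 blood markers, 4 were measured and Ptprc, Cd68, Lyz2 and Hbb-bt were not. Their summed linear signal was 26.4 to 41.15 in diploid, 18.28 to 33.43 in triploid and 16.3 to 24.48 in tetraploid clones. Of 6 endothelial markers, 2 were measured and Cdh5, Tek, Tie1 and Emcn were not. The sum of the 2 was 24.73 to 32.11, 19.05 to 36.28 and 13.63 to 22.96 in the same order. Pairs of diploid clones correlated across all features at Pearson r of 0.969 to 0.981 and pairs of tetraploid clones at 0.955 to 0.978. Triploid clone 1 stood apart from triploid clones 2 and 3 (0.948 and 0.956, against 0.985 between those). It correlated with diploid clones 1 to 3 at 0.9587, 0.9645 and 0.9494, and with tetraploid clones 1 to 3 at 0.9547, 0.9567 and 0.9303. Its highest correlation was thus with diploid clone 2. Diploid clone 1 was alone on a slide, the other 8 clones sharing another.

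Replication starts at origins, where the origin recognition complex, Cdc6 and Cdt1 load the Mcm2 to Mcm7 helicase onto DNA in G1, a step called licensing. At the start of S phase the kinases Cdc7-Dbf4 and Cdk2, with Mcm10, Cdc45 and the GINS complex, turn the loaded helicase into a moving fork. Polymerase alpha with primase then lays primers, polymerases delta and epsilon copy the strands while held by the clamp Pcna, and ribonucleotide reductase and thymidylate synthase supply the nucleotides. Many of these genes are transcribed at the G1 to S transition under E2F factors, and their level in a culture depends on how many of its cells are cycling.

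RefSeq start-site windows from 250 bases before to 50 bases after the start (build GRCm38.p6) were present for 41 of the 50 genes. The letters TTTCCCGC, TTTGGCGC, TTTCGCGC and TTTGCCGC, forms of the E2F motif, were searched on both strands, and each match was counted, also where it overlaps another. At least 1 match was found in 15 of the 41 genes (36.6%) and in 704 of 27025 genes with a window (2.6%). CCAAT was present in 56.1% of the members' windows against 41.1% of all genes, and the GC box GGGCGG in 75.6% against 38.2%. Below are the 250 bases before the start of 4 genes that the results turn on, in the direction of transcription, with matches to the E2F letters in capitals. Mcm5 and Mcm7 are helicase subunits with large differences between triploid and diploid clones, Mcm6 is a subunit with the most matches of the 4 and a small difference, and Pola2 is the only gene of the 50 that passed the test. The positions are chr8:75109259-75109508 on the plus strand for Mcm5, chr5:138171884-138172133 on the minus strand for Mcm7, chr1:128359706-128359955 on the minus strand for Mcm6 and chr19:5964207-5964456 on the minus strand for Pola2.
Mcm5: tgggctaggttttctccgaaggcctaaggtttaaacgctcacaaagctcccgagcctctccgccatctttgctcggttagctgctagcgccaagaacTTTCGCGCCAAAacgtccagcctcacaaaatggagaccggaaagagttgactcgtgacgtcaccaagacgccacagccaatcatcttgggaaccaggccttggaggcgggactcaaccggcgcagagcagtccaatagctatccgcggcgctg
Mcm7: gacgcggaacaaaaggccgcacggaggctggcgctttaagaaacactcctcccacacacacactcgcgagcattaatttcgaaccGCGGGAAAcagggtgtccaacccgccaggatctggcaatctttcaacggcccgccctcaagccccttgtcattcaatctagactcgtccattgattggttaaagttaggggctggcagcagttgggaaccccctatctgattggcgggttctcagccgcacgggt
Mcm6: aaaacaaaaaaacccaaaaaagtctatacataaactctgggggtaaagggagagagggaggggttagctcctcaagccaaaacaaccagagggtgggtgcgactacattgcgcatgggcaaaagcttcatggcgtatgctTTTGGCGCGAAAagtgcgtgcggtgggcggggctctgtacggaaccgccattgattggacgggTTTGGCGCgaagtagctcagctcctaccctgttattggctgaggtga
Pola2: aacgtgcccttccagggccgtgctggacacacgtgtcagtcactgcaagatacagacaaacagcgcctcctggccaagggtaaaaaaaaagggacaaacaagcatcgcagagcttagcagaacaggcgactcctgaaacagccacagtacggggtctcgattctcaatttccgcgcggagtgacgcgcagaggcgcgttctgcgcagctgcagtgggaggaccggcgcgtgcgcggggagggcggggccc
The 250 bases of Mcm5 hold 2 overlapping matches, those of Mcm7 hold 1, those of Mcm6 hold 3, of which 2 overlap, and those of Pola2 hold none. The absence of a match says only that these letters are not in this window. The members lie on 15 chromosomes, with 10 on chromosome 5.

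In triploid against diploid clones the replication genes were higher as a group, though few passed a test of single genes. Levels are given as log2 of the processed signal minus the array's 75th percentile, so that 0 is that percentile, and a difference of 1 is a doubling. The difference between group means was above 0 for 49 of the 50 genes, with a median of 0.63 (1.55-fold) and a range from -0.36 to 1.54, while the median over all features was 0.10 and over all named genes 0.11. Pola2 was the 1 gene called higher by limma (Benjamini-Hochberg adjusted p under 0.05 over all features), where 0.615% of features were called higher, and 0 were called lower, where 1.22% of features were. At an unadjusted p under 0.05, limma placed 23 of the 50 higher and 0 lower, against 11.6% and 9.61% of features. All 3 triploid clones lay above all 3 diploid clones in 32 of the 50 genes (64%), against 17.2% of features. The difference was over 2-fold upward in 10 genes. Each array holds the RNA of a whole culture, loaded at equal amounts, so more cells in S phase and more RNA of these genes per cell cannot be told apart.

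**Figure D1:**
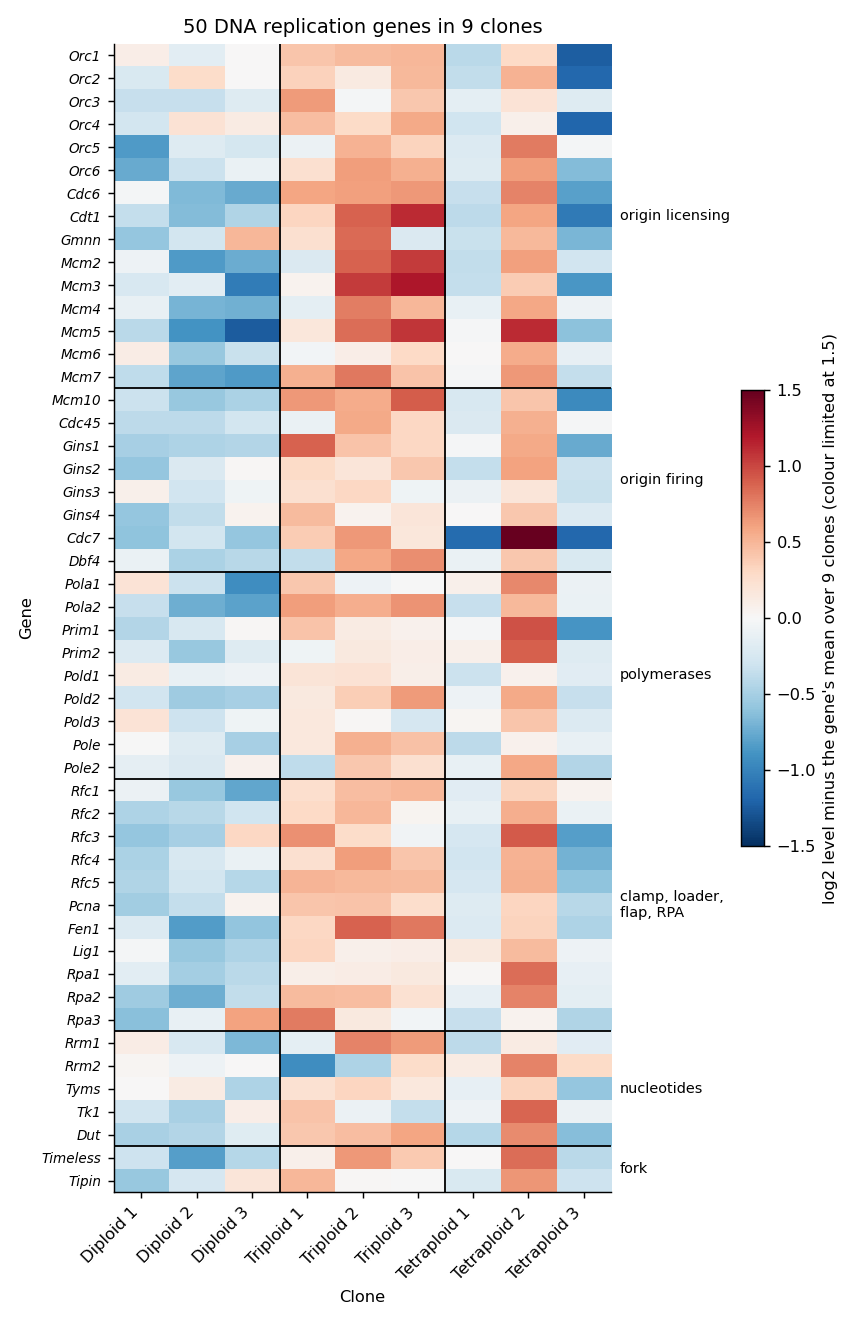
Colour shows, for each of the 50 genes (vertical axis, grouped by role) in each of the 9 clones (horizontal axis), the log2 level minus the gene's mean over the 9 clones, limited at 1.5 in either direction. The 3 diploid columns are mostly blue, the 3 triploid columns mostly red, and among the tetraploid columns only that of clone 2 is mostly red.

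Licensing genes had the largest median difference of the 6 roles, 0.86 over 15 genes, 10 of which had groups that did not overlap. The counts of separate groups by role stand beside 17.2% of all features. Mcm5, a subunit of the helicase ring, had levels of 4.70, 4.21 and 3.85 in diploid clones 1 to 3 and 5.28, 5.94 and 6.18 in triploid clones 1 to 3. The groups did not overlap, and the difference of 1.54 ± 0.45 (SE, 3 clones a group) was the largest among the 50, with a limma adjusted p of 0.106. Mcm7, another ring subunit, was at 5.46, 5.05 and 4.98 in diploid and 6.37, 6.63 and 6.27 in triploid clones. Every triploid clone exceeded every diploid clone, by 1.26 ± 0.29 on average (limma adjusted p 0.0641). Without tetraploid clone 2, which serves only to estimate the spread here, the same difference had a limma adjusted p of 0.0408, where 0.665% of features were called higher, and with normexp background correction 0.0456.

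The other 4 ring subunits had adjusted p-values further from the threshold. Mcm3 was at 4.54, 4.63 and 3.73 in diploid and at 4.84, 5.83 and 5.99 in triploid clones, a difference of 1.26 ± 0.43 (limma adjusted p 0.146). Its groups did not overlap, with triploid clone 1 closest to the diploid range. Mcm2 was at 2.79, 2.02 and 2.12 in diploid and at 2.65, 3.75 and 3.92 in triploid clones, so triploid clone 1 fell within the diploid range. The Mcm2 difference was 1.13 ± 0.41 (limma adjusted p 0.167), and 1.52 ± 0.37 without triploid clone 1 (0.0478, a call). Mcm4 was at 5.40, 4.81 and 4.79 against 5.36, 6.28 and 6.00, again with triploid clone 1 inside the diploid range, and differed by 0.88 ± 0.32 (limma adjusted p 0.166). Mcm6 was at 6.59, 5.90 and 6.14 against 6.44, 6.58 and 6.77 and overlapped between groups, with a difference of 0.38 ± 0.27 (limma adjusted p 0.450), the least of the 6 subunits.

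Cdt1, the loading factor that geminin restrains, was at 4.11, 3.82 and 4.02 in diploid and 4.79, 5.36 and 5.59 in triploid clones. The groups were separate, by 1.27 ± 0.40 (limma adjusted p 0.127). Gmnn, which encodes geminin, overlapped between groups, with a difference of 0.41 ± 0.41. Cdc6, the ATPase that recruits Cdt1 to the origin, differed by 1.10 ± 0.38 on its brightest probe, whereas a dimmer probe gave 0.10, so the gene's value depends on the probe. Among the 6 subunits of the origin recognition complex the differences ran from 0.30 for Orc2 to 0.86 for Orc6.

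**Figure D2:**
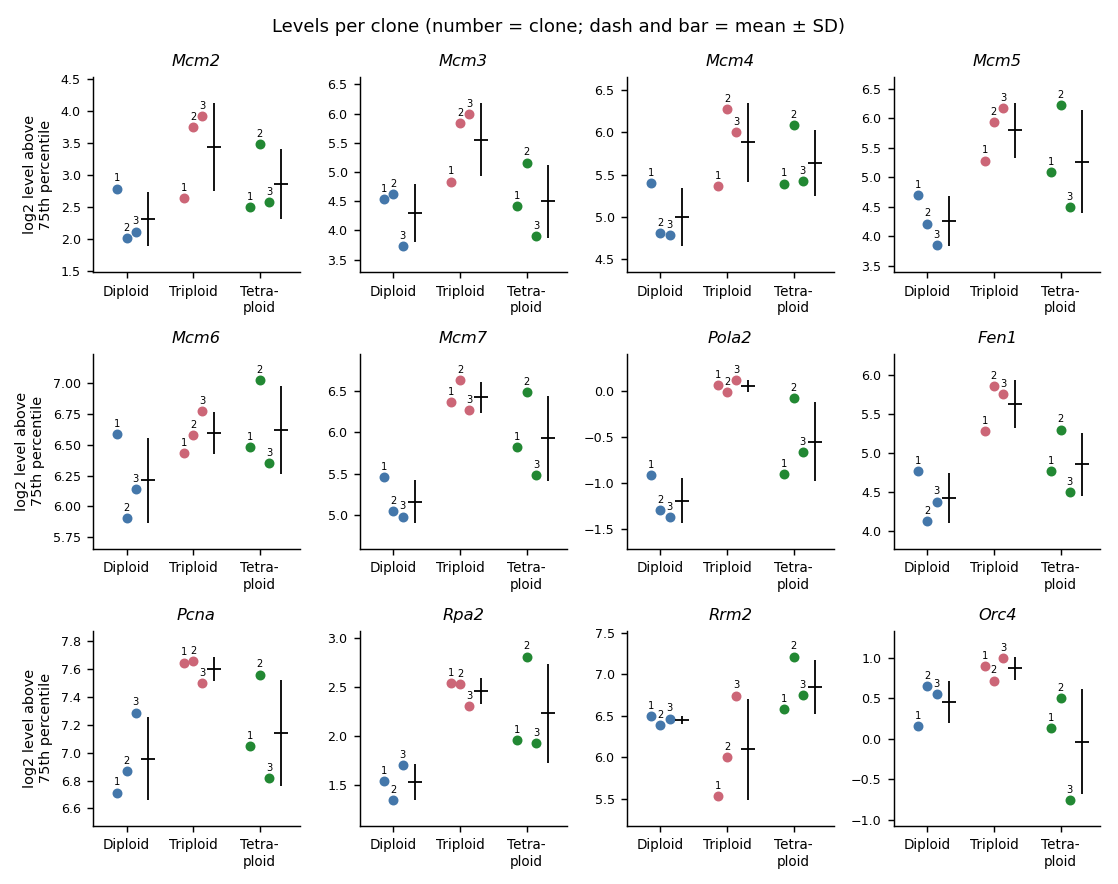
Each panel plots the log2 level above the array's 75th percentile (vertical axis, scaled for each gene) of 1 gene in the diploid, triploid and tetraploid clones (numbered points), with the group mean ± SD as a dash and bar. Triploid points lie above diploid points for Mcm3, Mcm5, Mcm7, Pola2, Fen1, Pcna, Rpa2 and Orc4, overlap with them for Mcm2, Mcm4 and Mcm6, and for Rrm2 lie on both sides; tetraploid clone 2 is the highest of its group in all 12 panels.

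In the firing role the median difference was 0.62 over 8 genes, with 5 whose groups did not overlap. Mcm10, which helps the helicase to start moving, was at 3.23, 2.99 and 3.08 in diploid and at 4.20, 4.11 and 4.46 in triploid clones. The groups lay well apart, by 1.16 ± 0.33 (limma adjusted p 0.0998). Cdc45, a part of the active helicase, was at -0.48, -0.48 and -0.36 against -0.19, 0.48 and 0.22, a difference of 0.61 ± 0.27 (limma adjusted p 0.225). Among the 4 GINS subunits, which bind with Cdc45, the differences ran from 0.26 for Gins3 to 1.01 for Gins1. Dbf4, the activating partner of the kinase Cdc7, differed by 0.63 ± 0.32 with overlapping groups.

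Polymerase and primase genes had a lower median, 0.42 over 9 genes, 5 of them with separate groups, but included the only call. Pola2, the B subunit of polymerase alpha-primase, was at -0.91, -1.29 and -1.37 in diploid and at 0.066, -0.011 and 0.12 in triploid clones. The 3 triploid values lay within a narrow band (mean 0.057 ± 0.065, SD, n = 3) far above the diploid ones (-1.19 ± 0.24, SD, n = 3). Pola2 thus rose by 1.25 ± 0.26 (2.37-fold), at a limma adjusted p of 0.0495. The call was close to the threshold: limma adjusted p was 0.0334 without tetraploid clone 2 and 0.0469 without triploid clone 1, and between 0.0551 and 0.164 when any of the other 7 clones was left out. Its partner Pola1, the catalytic subunit, differed by 0.45 ± 0.34 with overlapping groups. Pold2 of polymerase delta (0.82 ± 0.27) and Pole of polymerase epsilon (0.61 ± 0.23) had separate groups, while Pold1, Pold3 and Pole2 differed by 0.18, 0.027 and 0.19.

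The clamp, its loader, flap processing and single-strand binding genes had a median difference of 0.68 over 11 genes, and 9 of the 11 had groups that did not overlap. Fen1, the nuclease that trims Okazaki fragment flaps, was at 4.77, 4.13 and 4.38 in diploid and at 5.28, 5.86 and 5.76 in triploid clones. The groups were separate, by 1.21 ± 0.29 (limma adjusted p 0.0699), and by 1.38 ± 0.31 without triploid clone 1 (0.0381, a call). Without triploid clone 1, Mcm2, Fen1 and Pola2 were called, beside 2.59% of features called higher. Pcna, the sliding clamp, was at 6.71, 6.87 and 7.29 against 7.64, 7.66 and 7.5. The triploid values were close together and all above the diploid ones, with a difference of 0.64 ± 0.26 (limma adjusted p 0.194). Rpa2, a subunit of the single-strand binding complex, was at 1.53, 1.34 and 1.70 against 2.54, 2.53 and 2.30, separate by 0.93 ± 0.27 (limma adjusted p 0.109). The 5 clamp loader genes Rfc1 to Rfc5 differed by 0.55 to 0.88.

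Nucleotide supply had the lowest median, 0.34 over 5 genes, and held the 1 gene of the 50 below 0. Rrm2, the small subunit of ribonucleotide reductase, was at 6.49, 6.39 and 6.47 in diploid and at 5.54, 6.01 and 6.75 in triploid clones. The diploid clones were nearly equal and the triploid clones lay on both sides of them, with a difference of -0.36 ± 0.32 (limma adjusted p 0.571). Rrm1, the large subunit, differed by 0.68 ± 0.31 the other way, with triploid clone 1 inside the diploid range. Dut, which removes dUTP, was at 4.39, 4.44 and 4.69 against 5.29, 5.34 and 5.47, separate by 0.86 ± 0.34 (limma adjusted p 0.188). Tyms (thymidylate synthase) and Tk1 (thymidine kinase) differed by 0.34 ± 0.27 and 0.22 ± 0.33. Timeless, which with Tipin steadies the stalled fork, was at 2.38, 1.87 and 2.28 against 2.78, 3.35 and 3.09, separate by 0.90 ± 0.33 (limma adjusted p 0.172; 0.70 on a dimmer probe), and Tipin differed by 0.38 ± 0.33.

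**Figure D3:**
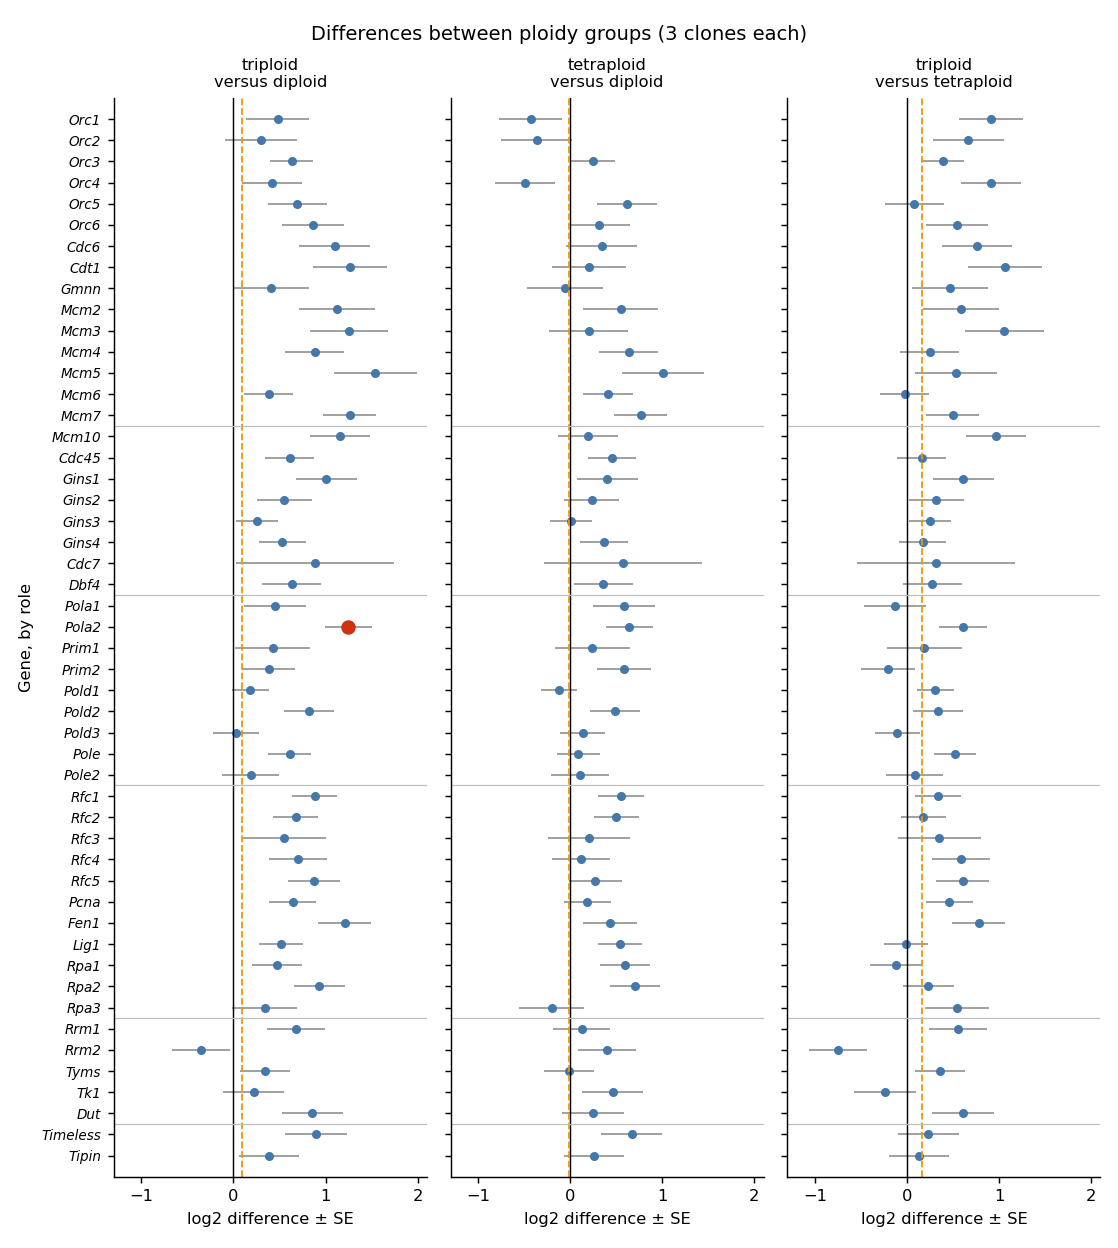
Points show the log2 difference between group means (horizontal axis) with its SE (grey bar) for each of the 50 genes (vertical axis) in the 3 comparisons of ploidy groups, and the dashed line marks the median of all features (0.10, -0.015 and 0.17). The red point is Pola2, the 1 gene at an adjusted p under 0.05; in triploid against diploid 48 of the 50 points lie to the right of the dashed line.

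Genes with and without a match to the E2F letters overlapped in their differences. The 15 genes with a match had a median triploid against diploid difference of 0.52 (0.027 to 1.54) and separate groups in 8, the 26 with a window and no match had a median of 0.70 and separate groups in 19. Of all features, 17.2% had separate groups, higher in triploid. The 9 genes without a window had a median of 0.55. The windows of both Mcm5 and Mcm6 printed above hold matches, and their differences were 1.54 and 0.38.

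In tetraploid against diploid clones the replication genes were higher on average, and the clones of the tetraploid group disagreed. The difference was above 0 for 43 of the 50, with a median of 0.33 (1.26-fold) and a range from -0.49 to 1.01. The median over all features was -0.015 and over all named genes 0.10. By limma, 0 of the 50 were called in either direction (smallest adjusted p 0.265), where 0% of features were called higher and 0.0734% lower. At an unadjusted p under 0.05, 4 were higher and 0 lower, against 6.44% and 8.36% of features. Of 12437 named genes, 1127 were higher and 614 lower at that threshold, so the higher count was near the share of named genes. Groups did not overlap in 8 genes, all higher, which is 16% of members against 11% of features. Among named genes alone, 1928 of 12437 had separate groups, higher in tetraploid, a share close to that of the members.

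The largest differences were in Mcm5, Mcm7 and Rpa2. Mcm5 was at 5.08, 6.22 and 4.49 in tetraploid clones 1 to 3, with clone 3 inside the diploid range, and differed by 1.01 ± 0.45 (limma adjusted p 0.338). Mcm7 was at 5.82, 6.49 and 5.48, all above the diploid clones, by 0.77 ± 0.29 (limma adjusted p 0.265). Rpa2 was at 1.95, 2.81 and 1.92, also all above, by 0.70 ± 0.27 (limma adjusted p 0.279). Pola2 was at -0.91, -0.079 and -0.66 and lay between the diploid and triploid ranges, narrowly clear of both, 0.64 ± 0.26 above diploid (limma adjusted p 0.293). The smallest p in the remaining roles belonged to Cdc45 (-0.31, 0.45 and -0.11), Tk1 (5.98, 6.93 and 5.96) and Timeless (2.70, 3.53 and 2.30), with differences of 0.45 ± 0.27, 0.46 ± 0.33 and 0.67 ± 0.33. A dimmer Timeless probe gave 0.099. In all 3 genes tetraploid clone 2 was the highest of its group.

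On the low side stood 3 subunits of the origin recognition complex. Orc4 was at 0.16, 0.65 and 0.55 in diploid and at 0.13, 0.51 and -0.76 in tetraploid clones, a difference of -0.49 ± 0.32 (limma adjusted p 0.509). Orc1 was at -0.30, -0.55 and -0.39 against -0.79, -0.10 and -1.63, a difference of -0.43 ± 0.34. Orc2 was at 1.76, 2.26 and 1.99 against 1.62, 2.5 and 0.80, a difference of -0.36 ± 0.39. In each of the 3 genes tetraploid clone 3 was lowest of all 9 clones, and tetraploid clone 2 was above clone 1. Without tetraploid clone 3 the Orc2 difference was 0.0545. A dimmer Orc4 probe, above background on all 9 arrays, gave a tetraploid against diploid difference of 0.30, so the sign for Orc4 depends on the probe.

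The tetraploid clones differed from one another across the machinery. With each gene set to its mean over the 9 clones, the median of the 50 genes was -0.30, -0.37 and -0.31 in diploid clones 1 to 3, and 0.29, 0.46 and 0.37 in triploid clones 1 to 3. In tetraploid clones 1 to 3 it was -0.19, 0.55 and -0.34. Tetraploid clone 2 thus lay above the triploid clones and tetraploid clone 3 within the diploid range. Tetraploid clone 1 lay above that range and below the triploid clones. The same medians over all features were -0.012, 0.11 and -0.26 in tetraploid clones 1 to 3, and -0.054, -0.024 and 0.028 in diploid clones 1 to 3. Over all named genes they were 0.13 in tetraploid clone 2 and -0.065 in tetraploid clone 3. Tetraploid clone 2 was the highest of the 9 clones in 24 of the 50 genes (48%), against 12.8% of all features. Its level exceeded every diploid clone in 46 genes (92%), against 37.4% of features. Tetraploid clone 1 did so in 17 genes (34%, against 27.2% of features) and tetraploid clone 3 in 11 (22%, against 24.4%), while each triploid clone did so in 40 or 41 (80% or 82%, against 33.5% to 38.4%). The level of the lowest triploid clone was reached or exceeded by tetraploid clone 2 in 44 genes, and by tetraploid clones 1 and 3 in 10 and 7. That count was not made over all features, so it has no share to stand beside. Tetraploid clone 3 was the lowest of the 9 in 17 genes (34%), against 32.3% of all features and 22.0% of all named genes.

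The SD within the tetraploid group was the largest of the 3 groups in 38 of the 50 genes (76%), against 39.1% of features. The median SD over the members was 0.26 in diploid, 0.21 in triploid and 0.52 in tetraploid clones, and over all features 0.31, 0.31 and 0.36. Without tetraploid clone 2, the median tetraploid against diploid difference of the 50 genes was -0.015, with 24 above 0 and, by limma, 0 called, against -0.0941 over all features. Without tetraploid clone 3 the median was 0.54 against 0.080 over all features, with 46 above 0 and 17 with separate groups (34%, against 19.8% of features). For named genes alone these differences were not computed. Their medians about the gene means were 0.030 and -0.065 in tetraploid clones 1 and 3, and -0.12 to 0.0018 in diploid clones.

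**Figure D4:**
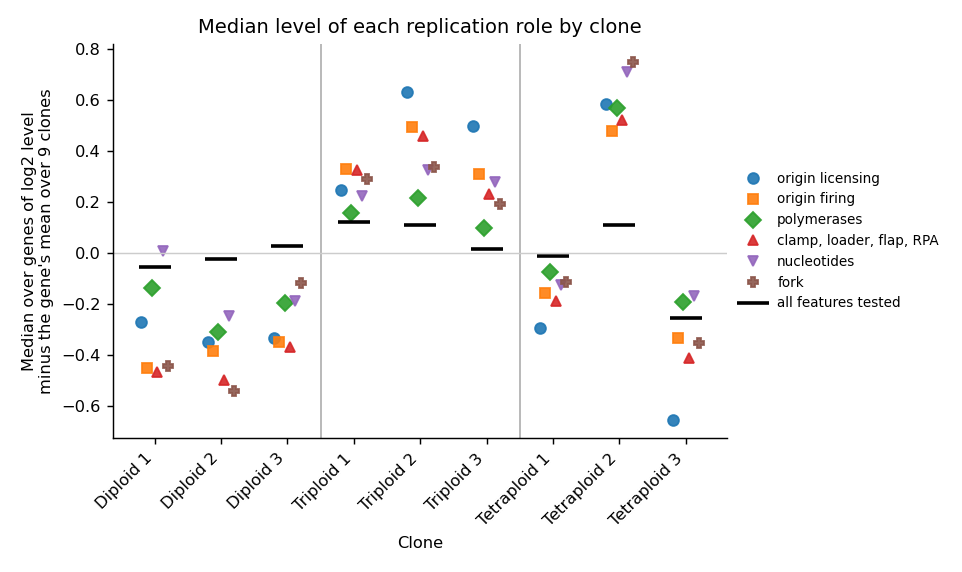
Symbols show the median over the genes of each role of the log2 level minus the gene's mean over 9 clones (vertical axis) for each clone (horizontal axis), and the black bar the same median over all 21800 features. All 6 roles are above the bar in the 3 triploid clones and in tetraploid clone 2, and all 6 are below it in tetraploid clone 1.

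In triploid against tetraploid clones, 42 of the 50 genes were higher in triploid, with a median of 0.34 (1.27-fold), against 0.17 over all features and 0.041 over all named genes. By limma, 0 were called in either direction (smallest adjusted p 0.140), where 1.09% of features were called higher and 1.61% lower. At an unadjusted p under 0.05, 8 were higher and 1 lower, against 10.9% and 9.89% of features. Groups did not overlap in 6 genes (12%), all higher in triploid, against 14.7% of features. This comparison shares the triploid clones with the first and the tetraploid clones with the second.

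Cdt1 was at 4.08, 5.06 and 3.41 in tetraploid clones, 1.06 ± 0.40 below the triploid mean (limma adjusted p 0.174). Mcm3 was at 4.42, 5.16 and 3.91, lower by 1.06 ± 0.43 on average (limma adjusted p 0.200), and Mcm10 at 3.31, 3.97 and 2.6, lower by 0.96 ± 0.33 (limma adjusted p 0.140). In Cdt1 and Mcm3 tetraploid clone 2 overlapped with triploid clone 1, and in Mcm10 no tetraploid clone reached the triploid range. Rrm2 went the other way, at 6.58, 7.21 and 6.75 in tetraploid clones, with a triploid against tetraploid difference of -0.75 ± 0.32 (limma adjusted p 0.218). Tk1 and Prim2, a primase subunit at 3.81, 4.63 and 3.54 in tetraploid clones, differed by -0.24 ± 0.33 and -0.20 ± 0.29. Without tetraploid clone 2 those 2 differences were 0.0776 and 0.11.

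Without tetraploid clone 2, 49 of the 50 genes were higher in triploid than in tetraploid clones, with a median of 0.63 against 0.25 over all features, and 38 had separate groups (76%, against 30.4% of features). Under that setting limma called 1.88% of features higher, and 5 of the 50 genes: Cdc7 (1.57 ± 0.24, adjusted p 0.0204), Mcm10 (1.30 ± 0.28, 0.0449), Cdt1 (1.5 ± 0.32, 0.0454), Dut (1.02 ± 0.22, 0.0470) and Orc1 (1.28 ± 0.28, 0.0473). Tetraploid clone 2 had the highest median of the 50 genes, so larger differences without it follow from those same values. They are no separate support for these 5 genes. Leaving out tetraploid clone 1 gave 38 genes higher in triploid, 6 with separate groups (12%, against 17.8% of features) and 0 called by limma. Without tetraploid clone 3 there were 35 higher, 6 with separate groups (12%, against 16.7%) and 0 called. Cdc7, the kinase that fires origins, was at -2.69, -2.36 and -2.66 in diploid, -1.71, -1.43 and -1.92 in triploid and -3.24, 0.52 and -3.26 in tetraploid clones. The value of tetraploid clone 2 stood far from the rest on that probe, whereas a dimmer Cdc7 probe read -2.65 in the same clone. With all 9 clones, the limma F test for any difference among the groups called 0 of the 50 (2.38% of features). At an unadjusted p under 0.05 there were 13, a share of 26% against 24.3% of features and 26.8% of named genes.

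Genes that work beside the machinery were mostly higher in triploid than in diploid clones, apart from the E2F regulators. Of all features, 12602 of 21800 were above 0 in this comparison. By limma, 0.615% of features were called higher, and 11.6% were higher at an unadjusted p under 0.05. Of 22 other replication factors measured, of 24 listed, 20 were higher in triploid than in diploid clones (median 0.52, 0 called by limma, 10 at an unadjusted p under 0.05). Mtbp, a partner of the origin-firing factor treslin, differed by 1.32 ± 0.33 (limma adjusted p 0.0795), and Lrwd1, which binds the origin recognition complex, by 0.83 ± 0.24 (0.104). Of 16 genes that copy chromatin at the fork, 15 were higher (median 0.67, 0 called, 10 at an unadjusted p under 0.05), led by the histone mRNA binder Slbp at 1.24 ± 0.26 (limma adjusted p 0.0501) and the assembly factor Chaf1b at 0.93 ± 0.25 (0.0915). Slbp was at 1.86, 1.71 and 1.90 in diploid, 2.96, 3.28 and 2.95 in triploid and 2.44, 3.33 and 2.82 in tetraploid clones, with both polyploid groups above the diploid one.

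Of 25 other nucleotide synthesis enzymes, 22 were higher in triploid clones (median 0.59, 0 called by limma, 9 at an unadjusted p under 0.05). Shmt1, which feeds one-carbon units to thymidylate, differed by 1.10 ± 0.34 (limma adjusted p 0.119) and the deaminase Dctd by 0.98 ± 0.29 (0.114). Of 17 genes that control licensing by degradation or kinases, of 19 listed, 13 were higher (median 0.48, 0 called, 5 at an unadjusted p under 0.05), with Cdkn1b, an inhibitor of cyclin-dependent kinases, at 0.90 ± 0.23 (limma adjusted p 0.0824) and the ubiquitin ligase scaffold Cul1 at 0.85 ± 0.24 (0.0991).

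E2F factors and their regulators showed no common direction: 13 of 24 were higher and 11 lower in triploid clones, with a median of 0.15. Tfdp2, a dimer partner of E2F factors, was the 1 gene called. Its level was 0.55, 0.33 and 0.45 in diploid, 1.38, 2.02 and 1.94 in triploid and 0.26, 0.39 and 0.63 in tetraploid clones. Tfdp2 rose in triploid clones by 1.34 ± 0.24 against diploid (limma adjusted p 0.0322) and by 1.36 ± 0.24 against tetraploid (0.0249), while tetraploid and diploid clones differed by -0.020 ± 0.24. E2f6, a repressor of the family, differed by -1.32 ± 0.28 from diploid (limma adjusted p 0.0527).

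Mitotic genes were higher too: 21 of 23 measured, of 25 listed, lay above 0 in triploid against diploid (median 0.45, 0 called by limma, 11 at an unadjusted p under 0.05). Kif11, the spindle kinesin, differed by 1.33 ± 0.31 (limma adjusted p 0.0654) and Nusap1, a spindle-associated protein, by 1.07 ± 0.26 (0.0699). In the same list Mki67 differed by -0.18 ± 0.23 (limma adjusted p 0.715), Plk1 by 0.022 ± 0.22 and Cdk1 by 0.13 ± 0.28. In tetraploid against diploid the mitotic median was 0.30, with 22 of 23 above 0 (10615 of 21800 features), and in triploid against tetraploid 0.15. The part of the share of cycling cells in the differences of the replication genes was not tested.

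**Figure D5:**
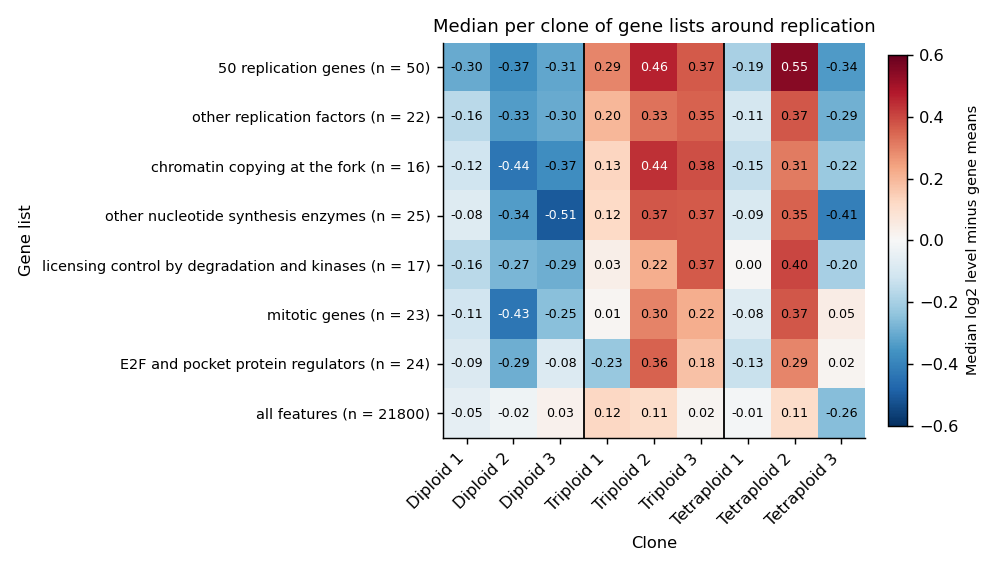
Each cell gives the median over a gene list (rows, with the number of genes measured) of the log2 level minus the gene's mean over 9 clones, for 1 clone (columns). The row of the 50 replication genes ranges from -0.37 to 0.55, and tetraploid clone 2 is at 0.29 or above in every list but the row of all features, where it is at 0.11.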

How the data were processed

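The deposited scanner files give, per the file headers, Feature Extraction 10.7.3.1 processed signals in intensity units (background-subtracted and detrended, Cy3), with the array design on build mm9. The authors' deposited table holds log2 values relative to diploid clone 1; they equalled scanner log2 differences minus a constant per array within 0.01 at 100% of values. No value comes from counts, so the number of clones limits precision. The log2 signal was set to each array's 75th percentile (215 to 407 units), and probes well above background on all arrays of a group were kept (25473 of 55681). RefSeq names came through a GRCm38.p6 table, which matched 26413 probes. Gene names of the brightest probe stood for 12437 genes. limma 3.58.1 in R 4.3.3 fitted the 3 groups together, with Benjamini-Hochberg adjustment over 21800 features, and was tested on simulated data. The members and lists were chosen with earlier results of these data known. Clone values are given for members called, the smallest p per role, the 3 largest differences each way, Mcm2 to Mcm7 and Pcna, and for called genes and the 2 smallest p of other lists; further genes named were chosen after their values were seen. Slide 1 held only diploid clone 1, so a slide block equals leaving it out. Alternatives were other scalings, normexp background correction (offset 50), filters, blocks, probe rules and each clone left out.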

Additional observations from a re-analysis of the deposited data

How the results depend on the processing

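The median of the 50 genes stayed above the median of all features in all 3 comparisons under every alternative run, and single-gene calls depended on the setting. All features include probes without a name. The median over named genes alone was computed only in the main fit (0.11, 0.10 and 0.041). Whether the 50 genes stayed above the named genes under the alternatives was not tested. Triploid against diploid, the excess of 0.54 ran from 0.48 to 0.62 with 1 clone left out and was 0.45 after quantile normalization. Tetraploid against diploid, the excess of 0.34 ran from 0.0792 to 0.46, lowest without tetraploid clone 2, and triploid against tetraploid the 0.18 ran from 0.0829 to 0.37. The 1 member called in triploid against diploid became 0 with the slide block, with no filter on dim probes, with only the groups compared, and when scaled to probes above background on all arrays, and ran from 0 to 3 with 1 clone left out. Triploid against tetraploid, leaving out 1 clone gave 0 to 5 members called, and the test of any difference 0 to 2. Features called ran from 61 to 1434 (main 400), 0 to 40 (16), 117 to 1312 (589) and 75 to 1461 (518, any difference) with 1 clone left out; without triploid clone 1 the first was 1434. With no filter they were 103, 0, 198 and 153, with the slide block 81, 0, 284 and 173. The scaling to shared probes moved the median of all features by -0.14 and -0.12 in the comparisons with diploid clones, where the members' medians were 0.49 and 0.21 and calls split 119 higher and 441 lower in triploid against diploid. With the replicate block, 0 members and 219 features were called in triploid against diploid. Same-numbered clones correlated at -0.13 to 0.09 in their deviations, and not every clone correlated best with its own number. Between triploid and tetraploid clones, same-numbered pairs were at 0.076, 0.079 and 0.04, and other pairs at -0.059 to 0.005. The labels state no pairing, and deviations within groups of 3 clones cannot exclude one. The Pola2 call held in 2 of 9 fits without 1 clone and in 4 of 10 other alternatives (0.89 with normexp, adjusted p 0.0553, where Mcm7 was the 1 member called, at 1.28 and adjusted p 0.0456). Of the named members, 3 differences changed sign: Orc2, tetraploid against diploid, ran from -0.79 (without tetraploid replicate 2) to 0.0545 (without tetraploid replicate 3), and triploid against tetraploid Tk1 ran from -0.46 to 0.0776 and Prim2 from -0.43 to 0.11, each highest without tetraploid replicate 2. The cause was not tested.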
